A study of Mus musculus with 120 samples.

Results

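The differentially methylated windows described here separate the hippocampus of App-NLGF mice from that of wild-type mice at postnatal week 3. They are every window of 1 kb that the authors listed for this tissue and age, 1024 of the 8961 windows in 6 lists and 0.044% of the windows tested here. The study used whole-genome bisulfite sequencing, which reads methylated cytosine as C and unmethylated cytosine as T, on 120 libraries of hippocampus or blood taken at postnatal week 3, 8 or 24 (12 groups of 10). The comparison sets 10 App-NLGF (APP-nlgf in the labels) hippocampal libraries of week 3 (5 female, 5 male) against 10 wild-type hippocampal libraries of week 3 (5 female, 5 male), with sex as a covariate, and asks what differs in the genome before amyloid deposits are prominent. App-NLGF is a knock-in strain: its own App gene, under its own promoter, carries a humanised amyloid-beta sequence with the Swedish, Iberian and Arctic mutations, in every cell of the body and from conception. The labels do not give the strain background, the copy number of the allele or litters, and nothing in them says that hippocampus and blood came from different animals. The hippocampus is a mixture of neurons, glia and vascular cells, so a difference within a cell type and a difference in the proportion of cell types cannot be told apart.

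The only values used are the authors' own, which give each window its methylation difference in percentage points and its raw and adjusted p. A difference is read as App-NLGF minus wild type, so "lower" means less methylated in App-NLGF. Only the comparison's name gives that order, and every direction below would be the reverse if the order were. No level or coverage of a single library was analysed here. The number of reads under a window and the spread among the 10 mice of a genotype are therefore unknown. Positions are on mm10, and gene positions and starts come from RefSeq on GRCm38.p6.

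Methylation of cytosine in the dinucleotide CpG is copied at each cell division by DNMT1, placed on new sites by DNMT3A and DNMT3B, and removed through oxidation by the TET enzymes. Most of the mammalian genome is methylated, and CpG-rich gene starts are mostly free of it; methylation at such a start goes with a silent promoter. In the first postnatal weeks, hippocampal neurons form synapses, glia multiply and neuronal methylation, including methylation outside CpG, is still being laid down, so week 3 is a time when methylation patterns in this tissue are moving.

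Windows that held a gene start were nearly all lower in App-NLGF, and they made up 2.91% of windows where 1.13% of the genome's 1 kb grid holds a start. Annotated starts can lie inside a gene body as well as at its end, as at Sh2d6 and Lmtk3. A window held the start of a gene in 29 of the 995 windows on chromosomes for which starts were used, and 27 of the 29 were lower. Of all 995 windows 70.3% were lower, and of those that held no start 69.6%. For coding genes the count was 22, of which 20 were lower; 0.127% of the 17274 coding genes whose starts were looked at have one inside a window. Their promoters are shown for 8 genes, those with a promoter wholly inside the window and the smallest adjusted p, because in these the whole sequence printed lies in the 1 kb window that was called, although which of its CpG were covered is not known. Each runs from 250 bases before to 50 bases after the start, 5′ to 3′ on the gene's strand, from RefSeq (GRCm38.p6), with every CpG in capitals. The first 7 lay in lower windows and the last, Cpsf4l, in a higher one.
Mettl27: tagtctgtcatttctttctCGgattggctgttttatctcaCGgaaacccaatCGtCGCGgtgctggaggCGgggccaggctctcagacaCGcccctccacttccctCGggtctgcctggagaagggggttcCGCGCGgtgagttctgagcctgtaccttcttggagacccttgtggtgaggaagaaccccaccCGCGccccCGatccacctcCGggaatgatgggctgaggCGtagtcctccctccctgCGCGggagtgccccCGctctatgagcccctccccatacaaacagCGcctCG
Zfp296: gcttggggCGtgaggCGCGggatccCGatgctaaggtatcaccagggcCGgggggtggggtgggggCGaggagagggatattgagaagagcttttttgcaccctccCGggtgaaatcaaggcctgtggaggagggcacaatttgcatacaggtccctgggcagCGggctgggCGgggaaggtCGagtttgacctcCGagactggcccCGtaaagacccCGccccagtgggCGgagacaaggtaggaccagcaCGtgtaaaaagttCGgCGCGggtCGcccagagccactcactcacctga
Lmtk3: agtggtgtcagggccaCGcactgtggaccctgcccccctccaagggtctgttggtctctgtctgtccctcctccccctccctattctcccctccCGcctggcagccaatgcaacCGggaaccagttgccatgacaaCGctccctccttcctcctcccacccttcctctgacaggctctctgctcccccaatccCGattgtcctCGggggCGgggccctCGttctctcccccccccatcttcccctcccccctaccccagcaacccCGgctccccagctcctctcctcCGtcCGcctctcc
Pcbd1: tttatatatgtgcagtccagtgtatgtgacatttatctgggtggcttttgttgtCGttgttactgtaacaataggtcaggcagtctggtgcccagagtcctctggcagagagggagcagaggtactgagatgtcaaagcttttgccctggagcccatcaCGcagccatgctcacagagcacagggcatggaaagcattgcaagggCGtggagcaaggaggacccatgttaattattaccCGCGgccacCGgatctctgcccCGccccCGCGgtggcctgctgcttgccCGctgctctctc
Smtnl2: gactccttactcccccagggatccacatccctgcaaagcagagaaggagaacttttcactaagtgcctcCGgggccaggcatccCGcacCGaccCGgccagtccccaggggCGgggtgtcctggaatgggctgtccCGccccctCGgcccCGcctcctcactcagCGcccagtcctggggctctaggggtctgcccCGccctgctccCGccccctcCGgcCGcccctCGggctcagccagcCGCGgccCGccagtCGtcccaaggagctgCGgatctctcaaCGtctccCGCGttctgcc
Sin3b: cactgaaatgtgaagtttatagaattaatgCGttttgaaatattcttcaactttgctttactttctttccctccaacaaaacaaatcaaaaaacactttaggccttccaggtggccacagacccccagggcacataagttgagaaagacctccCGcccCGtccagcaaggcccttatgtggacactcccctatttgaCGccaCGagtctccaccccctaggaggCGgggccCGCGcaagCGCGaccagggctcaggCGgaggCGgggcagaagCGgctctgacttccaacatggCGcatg
Snapc3: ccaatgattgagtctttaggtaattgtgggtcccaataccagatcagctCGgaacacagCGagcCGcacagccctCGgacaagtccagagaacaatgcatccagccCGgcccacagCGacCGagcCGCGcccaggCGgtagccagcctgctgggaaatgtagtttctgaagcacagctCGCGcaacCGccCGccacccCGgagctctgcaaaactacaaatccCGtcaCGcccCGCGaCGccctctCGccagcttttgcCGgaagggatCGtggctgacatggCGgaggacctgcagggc
Cpsf4l: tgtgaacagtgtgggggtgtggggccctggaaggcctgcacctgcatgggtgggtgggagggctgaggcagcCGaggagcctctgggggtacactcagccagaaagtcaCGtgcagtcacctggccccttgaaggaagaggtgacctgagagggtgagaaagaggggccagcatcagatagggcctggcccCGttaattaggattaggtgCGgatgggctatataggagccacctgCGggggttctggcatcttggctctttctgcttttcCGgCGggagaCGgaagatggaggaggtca

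The positions of these promoters are chr5:134932274-134932573 (+) for Mettl27, chr7:19577037-19577336 (+) for Zfp296, chr7:45785097-45785396 (+) for Lmtk3, chr10:61089081-61089380 (+) for Pcbd1, chr11:72411664-72411963 (-) for Smtnl2, chr8:72723020-72723319 (+) for Sin3b, chr4:83417474-83417773 (+) for Snapc3 and chr11:113709477-113709776 (-) for Cpsf4l. They hold 21 CpG (Mettl27), 19 (Zfp296), 11 (Lmtk3), 10 (Pcbd1), 22 (Smtnl2), 14 (Sin3b), 24 (Snapc3) and 8 (Cpsf4l). Mettl27, Zfp296, Smtnl2, Sin3b and Snapc3 thus have CpG-rich starts, with at least 0.6 of the CpG that their base composition would give, whereas Lmtk3, Pcbd1 and Cpsf4l do not. Over the 22 coding starts inside a window, the median promoter held 20 CpG (range 2 to 38), against a median of 13 over 21045 coding promoters of the same length. The ratio of 0.6 was reached by 13 of the 22 (59.1%), against 48.1% of all coding promoters. At the extremes were Fam189a2 with 38 CpG and Aspa with 2.

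The window at the start of Mettl27 had the smallest adjusted p of the list. Mettl27 encodes a methyltransferase-like protein and lies in the region that corresponds to the human Williams-Beuren syndrome deletion. In the authors' deposited table its window (chr5:134932001-134933000) stood at -12.2 points (adjusted p = 1.63e-13). The next smallest adjusted p was 3.41e-06, at chr1:57087001-57088000 with -17.1 points and no named gene within 10 kb in the authors' deposited table. The Mettl27 window also holds the start of the predicted gene 9030607J07Rik on the other strand, and the values of these genes cannot be separated. For Zfp296, a zinc finger gene of pluripotent cells, the authors' deposited table gives -10.04 points with an adjusted p of 0.00163. Slc39a1, which encodes a zinc importer of the plasma membrane, stood at -14.6 points (adjusted p = 0.00255) and Lmtk3, a kinase gene expressed in brain, at -16.9 points (0.00522) in the authors' deposited table.

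Sin3b, a scaffold of histone deacetylase complexes, has -10.8 points in the authors' deposited table, and Snapc3, a subunit of the factor that starts small nuclear RNA transcription, has -10.4 points. Srp54b, a signal recognition particle gene that has near-identical copies in the mouse, stood at -17.3 points in the authors' deposited table, and reads from its copies may not be separable. Pcbd1, which recycles the tetrahydrobiopterin used in making monoamines, was at -11.3 points and Cad, the enzyme of the opening steps of pyrimidine synthesis, at -11.2 points in the authors' deposited table. Aspa, the enzyme of oligodendrocytes that breaks down N-acetylaspartate, was at -10.5 points and Rab3gap2, a regulator of the vesicle GTPase Rab3, at -10.8 points in the authors' deposited table. At Sh2d6 the authors' deposited table has -19.7 points (adjusted p = 0.0535), the largest difference at a coding start. The start used there lies inside the gene, and its window is 66.6% along the gene body. At Lmtk3 the window is 11.3% along it. The remaining lower starts were those of Smtnl2, Fam189a2, Gpatch8, Map7d3, Prune2, Limch1, Pnpla1 and Egfl7, between -16.0 and -10.1 points in the authors' deposited table. The 2 higher starts were Cpsf4l at 10.7 points (adjusted p = 0.00576) and Magea10, a germline antigen gene on X, at 10.5 points (adjusted p = 0.0564) in the authors' deposited table. The median absolute difference of the 29 start windows was 11.5 points, smaller than the 13.8 points of all windows.

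Counted within 1 kb of a coding start, 41 windows lay at a start and 36 of them (87.8%) were lower. They made up 4.12% of the 995 windows, while 2.16% of all positions on the 1 kb grid lie that close. Of those that did not hold the start itself, 10 lay upstream (9 lower) and 9 downstream (7 lower). These counts are to be read against the 70.3% of all 995 windows that were lower. The authors' deposited table places -11.2 points 0.231 kb upstream of Dusp6, the phosphatase that switches off ERK and is induced by activity. It places -15.3 points 0.429 kb downstream of a start inside Tspan6, a tetraspanin gene on X. There were 24 windows from 2 kb upstream to the start and 29 from the start to 2 kb downstream, 6.91 and 7.79 per 10000 grid positions, against 3.94 over all distances and between 3.34 and 4.54 in every other bin to 100 kb. In the 2 kb upstream, 23 of 24 windows were lower. Windows more than 100 kb from any coding start numbered 472 (47.4%), and 47.96% of grid positions are that far away; 32.6% of these windows were higher. The grid includes positions that sequencing could not cover, so its shares are a reference and not the tested set.

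**Figure D1:**
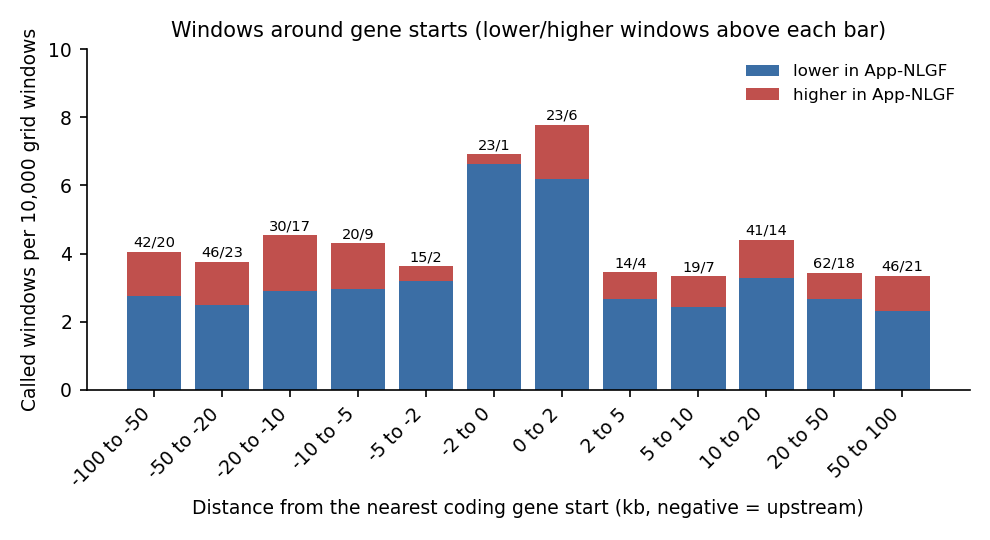
Called windows around the nearest coding gene start, per 10000 windows of the 1 kb grid at that distance (vertical axis), by distance in kb (horizontal axis, negative upstream). Blue is lower and red higher in App-NLGF, with the numbers of lower and higher windows above each bar; the bars within 2 kb of a start, at 6.91 and 7.79, stand above all others.

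In the other lists the windows at gene starts had different directions and shares, and the lists as a whole also differed in direction. At week 8 the hippocampal list had 13 windows that held a gene start, 9 higher and 4 lower, and at week 24 it had 7, with 5 higher and 2 lower. Blood had 11 at week 3, with 6 higher, and 6 at week 24, with 3 higher. Blood at week 8 stood apart with 1209 windows at gene starts, of which 1208 were lower, so a list that is mostly lower at starts is not seen in week 3 hippocampus alone. Start windows made up 2.91% of the week 3 hippocampal list (1.13% of the grid), 1.82% of the hippocampal list of week 8, 0.765% of that of week 24 and 27.5% of the blood list of week 8. These differences between lists were not tested.

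**Figure D2:**
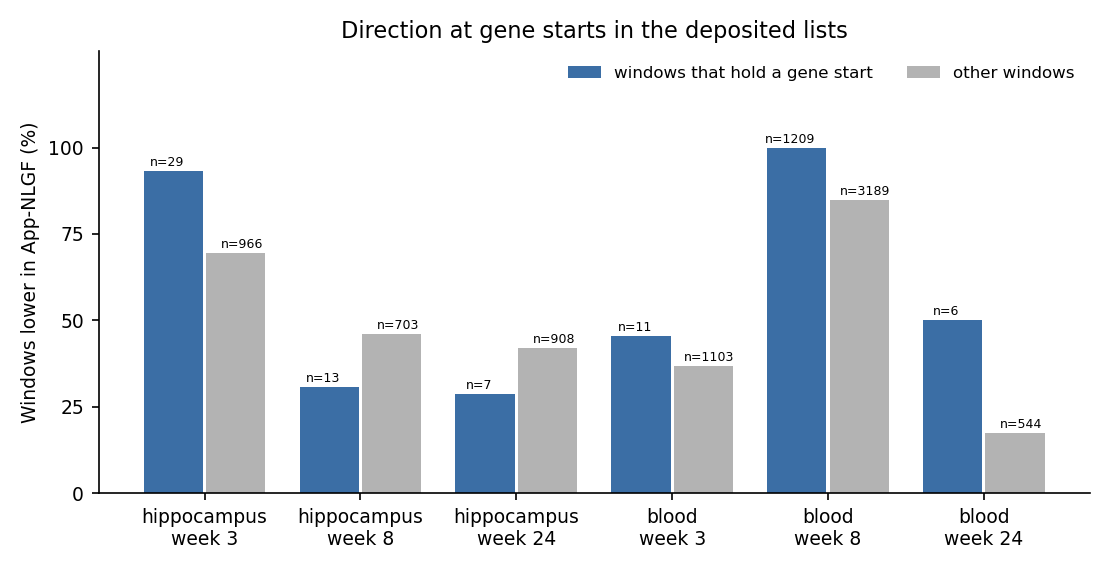
Share of windows that were lower in App-NLGF (vertical axis, percent) in each of the 6 lists, for windows that hold a gene start (blue) and all other windows (grey), with the number of windows above each bar. In hippocampus at week 3 the shares were 93.1% of 29 windows and 69.6% of the others; the blue bars of the other hippocampal ages rest on 13 and 7 windows.

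Across the genome, lower windows outnumbered higher ones by more than 2 to 1. Of 2325242 windows tested, a number recovered from the authors' p and adjusted p, 0.044% were listed, 0.013% as higher and 0.0311% as lower, that is 302 and 722 windows. The listed share was 0.0318% in hippocampus at week 8 and 0.0408% at week 24, and 0.0495%, 0.196% and 0.0244% in blood at weeks 3, 8 and 24. The recovered ranks give at least 1830 windows with an adjusted p under 0.1 in week 3 hippocampus, so at least 806 of these are not listed. All listed windows differ by at least 10 points, so the others presumably fell under that limit. Any further filter of the authors is unknown. These unlisted windows have no direction here.

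Differences were modest and alike in size in both directions. The median absolute difference was 13.8 points (quartiles 11.8 and 17.0), with 13.95 for higher windows and 13.8 for lower windows. At least 15 points separated the genotypes in 405 windows (125 higher), at least 20 points in 122 (43 higher) and at least 30 points in 8 (2 higher). The share of higher windows was 28.4% from 10 to 12 points, 28.8% from 12 to 15, 29.0% from 15 to 20 and 35.2% above. Adjusted p hardly moved with size, with medians of 0.0591, 0.0615, 0.0565 and 0.0554 in these bands. Most calls had an adjusted p above 0.05: 370 windows had one under 0.05, 62 under 0.01 and 5 under 0.001. Windows closest to the limit on size in the authors' deposited table were Zpld1 at -10.03 points, Mettl6 at -10.03 points, chr14:72343001-72344000 at 10.03 points with no named gene within 10 kb, and Olfr490 at 10.04 points. Closest to the limit on adjusted p in the authors' deposited table was Sestd1 with 0.0996.

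**Figure D3:**
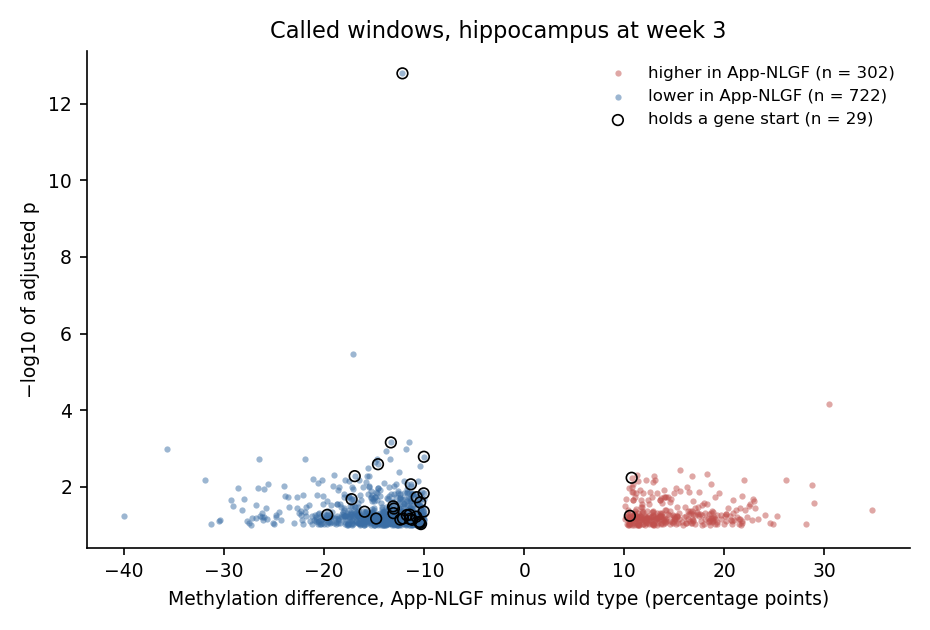
Methylation difference in percentage points (horizontal axis, App-NLGF minus wild type) against -log10 of the adjusted p (vertical axis) for each of the 1024 windows, 302 higher (red) and 722 lower (blue); black circles mark the 29 windows that hold a gene start. The gap between -10 and 10 points is the authors' limit, and the highest point is the window at the start of Mettl27.

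The largest decreases lay away from named genes, while several of the largest increases lay inside them. Of all placed windows, 35.3% lay more than 10 kb from any gene, predicted genes included. In the authors' deposited table the largest decrease was -40 points at chrX:150005001-150006000, with no named gene within 10 kb. It was followed in the authors' deposited table by -35.7 points at chr1:101503001-101504000 and -31.9 points at chr16:79105001-79106000, also outside named genes. The largest increase was 34.8 points at chr7:76167001-76168000, again with no named gene within 10 kb in the authors' deposited table. Inside named genes the authors' deposited table has 30.4 points in Mgat4c, a gene of the N-glycan branching enzyme family (with -13.6 points in another window of it), 28.9 points in Mrtfb, a coactivator of serum response factor, and 28.8 points in Cdh19, a cadherin gene. Fgf13, an intracellular fibroblast growth factor homologue that regulates sodium channels, stood at 22.5 points and Tbc1d5, a regulator of retromer and endosome traffic, at 21.7 points in the authors' deposited table. On the lower side, Jarid2, a cofactor of Polycomb repressive complex 2, was at -26.2 points and Mylk4, a myosin kinase gene, at -22.7 points in the authors' deposited table.

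Chemosensory receptor genes held several of the large differences. Olfactory receptor genes, looked at because 5 of them or their pseudogenes stood among the 15 largest decreases of windows with a named gene, had 12 windows in or within 10 kb, 9 lower and 3 higher, with a median absolute difference of 19.4 points. Vomeronasal receptor genes had 5 windows, 4 lower and 1 higher, with a median absolute difference of 20.2 points. The share of genes with a window was 1.40% of 1428 olfactory and 0.800% of 625 vomeronasal genes. Over all 21631 coding genes it was 2.6%. These shares are not like for like, because the share rises with gene length and the receptor genes counted may include pseudogenes. These clustered families have many near-identical members, and reads may not be assigned to one member with certainty. In the authors' deposited table the window near Olfr809 was at -28.0 points, that near Olfr697 at -24.5 points and that inside Vmn2r114 at -22.0 points, while that inside Vmn2r5 was at 21.7 points.

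Every one of the 20 chromosomes had more lower than higher windows. The share of higher windows ran from 20.9% on chromosome 13 to 35.5% on X. Density was 3.91 windows per 10 Mb over all, highest on chromosome 11 with 5.58 (68 windows, 24 higher) and chromosome 16 with 4.90 (48 windows, 16 higher), and lowest on chromosome 15 with 2.79 (29 windows). Windows stood alone: the median gap between neighbours was 1643 kb, none touched, 3 pairs lay within 10 kb and 41 within 100 kb, 26 of these with one direction. The closest pair of one direction lay inside Gpm6b, a myelin and neuronal membrane glycoprotein gene on X, 4 kb apart at -17.5 and -18.6 points in the authors' deposited table. No stretch of 1 Mb held more than 4 windows. One such stretch, on X from 165336001 to 166283000 and reaching from the glycine receptor gene Glra2 to Gpm6b, had 4 lower windows between -20.2 and -17.5 points in the authors' deposited table. Another, on chromosome 7 from 41101001 to 41464000 beside the vomeronasal receptor gene Vmn2r57, had 4 lower windows between -26.4 and -17.2 points in the authors' deposited table.

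**Figure D4:**
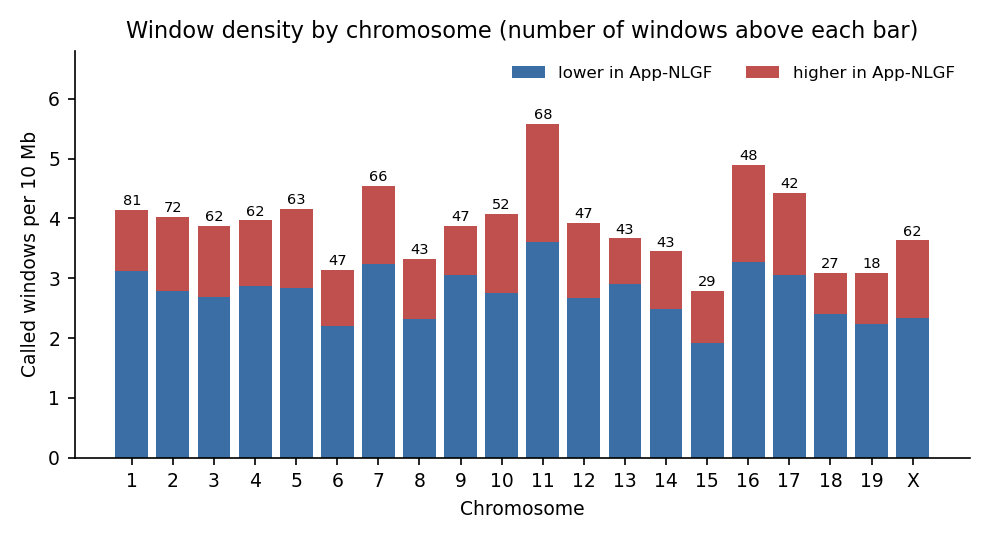
Called windows per 10 Mb (vertical axis) on each chromosome (horizontal axis), lower windows in blue and higher windows in red, with the number of windows above each bar. Blue exceeds red on all 20 chromosomes, and the tallest bar is chromosome 11 with 68 windows.

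The edited gene itself had no window. App lies on chromosome 16 from 84952666 to 85175255, and within 5 Mb of it there were 6 windows. The 3 before the gene were all higher and the 3 after it all lower. In the authors' deposited table those before were 14.1 points, 20.6 points inside the cell adhesion gene Ncam2 and 16.7 points. After App, the authors' deposited table has -13.3 points inside Adamts5, an aggrecan-cleaving protease gene 724 kb away, then -11.98 and -11.7 points. Without chromosome 16 the list keeps 976 windows, of which 29.3% were higher, against 29.5% with it.

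Gene bodies held windows about as often as their share of the genome. Inside a gene lay 488 of 1022 placed windows (47.7%), where genes cover 48.8% of the grid, and 408 (39.9%) lay inside a coding gene, against 40.1%. Of the windows inside coding genes, 26.7% were higher, and of those more than 10 kb from any gene, 34.1% were higher. Density was alike in short and long genes, and long genes were therefore hit more often. Of 227 coding genes of at least 500 kb, 27.3% had a window inside, of 2200 genes from 100 to 500 kb 6.82%, and of 19204 shorter genes 0.937%. Per 10 Mb of gene these classes had 3.94, 3.59 and 4.17 windows. Coding genes with a window in or within 10 kb numbered 562 (2.6%), 149 of them with a higher window (0.689%) and 423 with a lower one (1.96%). Counts for the gene groups below are to be read against these shares and against 3.89 windows per 10 Mb of all coding gene bodies. The median difference of windows at coding genes was -12.001 points, and that of all windows -12.085 points.

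Synaptic adhesion genes, which hold pre- and postsynaptic membranes together, had 11 windows. A window was present at 8 of 46 neurexin, neuroligin and leucine-rich repeat genes (17.4%), in 3 cases higher and in 8 lower, which is 5.93 per 10 Mb of their bodies. Tenm2, a teneurin that binds latrophilin across the synapse, had 3 windows, all lower, at -15.0, -14.8 and -11.2 points in the authors' deposited table. Il1rapl1, a receptor-like adhesion gene on X tied to intellectual disability, had 2 windows, both higher, at 17.8 and 14.5 points in the authors' deposited table. Lower windows lay in Lingo2 (-16.6 points), Nlgn1, the neuroligin of excitatory synapses (-15.6), Lrrc4c (-13.2), Tenm3 (-11.7) and Ptprs (-11.7) in the authors' deposited table, while Tenm4 was at 10.7 points.

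Immunoglobulin and contactin adhesion genes had 7 of 38 members (18.4%) with a window and went both ways, with 4 windows higher and 5 lower, 4.48 per 10 Mb. Cntnap2, a contactin-associated protein of axons that spans over a megabase, had 24.1 points at 68.1% of its length from the start, and -17.2 and -11.997 points at 1.85% and 4.53%, in the authors' deposited table. The contactins Cntn4 and Cntn5 were at -16.6 and -13.7 points and Cntn6 at 15.3 points in the authors' deposited table. Among cadherins and protocadherins 7 of 47 (14.9%) had a window, 3 higher and 4 lower, at 4.12 per 10 Mb. The authors' deposited table has Cdh18 at -22.1 points, Cdh13 at -18.4 points, Pcdh19, the X-linked epilepsy gene, at -17.0 points and Pcdh9 at 13.4 points. These genes are among the longest in the genome, and their density was near that of all coding genes.

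Postsynaptic genes of glutamate synapses had 7 lower windows and 1 higher one, in a list that was 70.5% lower throughout. These lay at 6 of 54 genes (11.1%), at 4.66 per 10 Mb. The authors' deposited table gives -26.6 points in Lrrc7 (densin, a scaffold of the postsynaptic density) and -20.6 points in Grm7, a metabotropic glutamate receptor. Grm8, a receptor of the same class, was at -16.2 points and the scaffold gene Dlgap2 at -13.7 and -10.5 points in the authors' deposited table. For the machinery of transmitter release, 5 of 51 genes (9.80%) were hit, 2 higher and 3 lower, at 5.92 per 10 Mb. They were, in the authors' deposited table, Unc13c, a vesicle priming factor, at -19.2 points, the synapsins Syn2 at -16.4 and Syn3 at 16.5 points, the active zone scaffold Erc1 at -15.5 points, and Syt1, which triggers release on calcium entry, at 18.7 points.

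GABA and interneuron genes had 1 of 34 (2.94%), the receptor subunit gene Gabrb1 at 16.1 points in the authors' deposited table. That is 1.80 windows per 10 Mb of the bodies of these genes. Potassium channel genes had 3 of 72 (4.17%) and calcium and sodium channel genes 3 of 39 (7.69%). Inside their bodies lay Dpp6, an auxiliary subunit of A-type channels, at -18.7 points, Kcns3 at -12.2 points and Cacna1e, the pore of R-type calcium channels, at -16.7 points, as the authors' deposited table gives them. The density inside these channel genes was 1.60 and 1.22 per 10 Mb, from 2 and 1 windows.

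Guidance receptors and their ligands had 4 of 58 members (6.90%) with a window, 1 higher and 3 lower, at 3.40 per 10 Mb of their bodies. Plxna2, a semaphorin receptor that shapes mossy fibre layering, was at -26.8 points, the ligands Sema5b and Ntn1 were at -11.7 and -11.1 points and the membrane-bound netrin Ntng2 at 11.8 points in the authors' deposited table. Among Eph receptors 2 of 22 (9.09%) had a window, at -17.8 points in Epha3 and 12.9 points 7.18 kb from Epha4 in the authors' deposited table. The density inside the genes of this list was 3.21 per 10 Mb, from 1 window. Growth factor genes had 6 of 72 (8.33%), 2 windows higher and 4 lower, with 3.39 per 10 Mb inside their bodies. The authors' deposited table has Igf1 at -17.5 points, the neurotrophin gene Ntf5 at -15.1 points and the neurotrophin-3 receptor Ntrk3 at -14.1 points. Wnt pathway genes had 3 of 76 (3.95%), all lower and all outside the gene: Znrf3, which removes Frizzled receptors, at -12.5 points, the beta-catenin cofactor Bcl9l at -11.5 points and Wnt5a at -10.4 points in the authors' deposited table. By the authors' deposited table Bcl9l (adjusted p = 0.000689) and Znrf3 (0.00396) were among the smallest adjusted p of the list.

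Regulators of hippocampal neuron identity had 5 of 40 members (12.5%) with a window, 1 window higher and 5 lower, 9.52 per 10 Mb from 6 windows. The authors' deposited table has Zbtb20, which specifies CA1 pyramidal neurons, at -19.8 points, Sox5 at -12.05 points and Tcf4 at -10.7 points. Foxp1 held both directions, at 12.1 and -11.5 points in the authors' deposited table. Chromatin regulators had 5 of 91 (5.49%), 3 windows higher and 3 lower, with 5.63 per 10 Mb inside their bodies. Besides Jarid2 these were Nsd2, a histone H3 methyltransferase, at 13.7 points, Kmt2e at -10.2 points, Auts2 at 11.3 and -12.8 points, and Tet2, the oxidising demethylase, with 16.8 points 3.68 kb away in the authors' deposited table. Dnmt1, Dnmt3a and Dnmt3b had none.

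Among glial genes, those of the oligodendrocyte lineage had 3 of 34 (8.82%) with a window, at 7.77 per 10 Mb of their bodies from 3 windows. They were Cdh19, and lower windows at -17.8 points in Myrf, the transcription factor that switches on myelin genes, and -15.2 points in Tnr, tenascin-R, in the authors' deposited table. Astrocyte genes had 1 of 25 (4%), at 5.96 per 10 Mb from 2 windows, both in Gpc5, at -16.0 and -14.1 points in the authors' deposited table. Microglial, complement and interferon genes had 1 of 48 (2.08%), 19.4 points 3.65 kb from Gpr34, a lysophosphatidylserine receptor gene on X, in the authors' deposited table. Vascular genes had 0 of 25. Of 40 defining markers of neurons, glia, vessels and blood, 1 had a window.

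Of 27 genes of App processing and amyloid clearance 1 (3.70%) had a window, Bace1, the beta-secretase gene, which the authors' deposited table puts at -13.8 points (adjusted p = 0.0817). Of 46 Alzheimer risk genes 0 had one, and of 52 autophagy, lysosome and mTOR genes 0. The share over all coding genes is 2.6%, and lists this short cannot be read as above or below it. Imprinted genes had 2 of 50, through 1 window of -14.3 points inside both Igf2r and the overlapping antisense gene Airn in the authors' deposited table. Activity genes had 2 of 34 (5.88%), Mrtfb and Dusp6. A gene without a window may have been thinly covered or under the limits of the list.

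**Figure D5:**
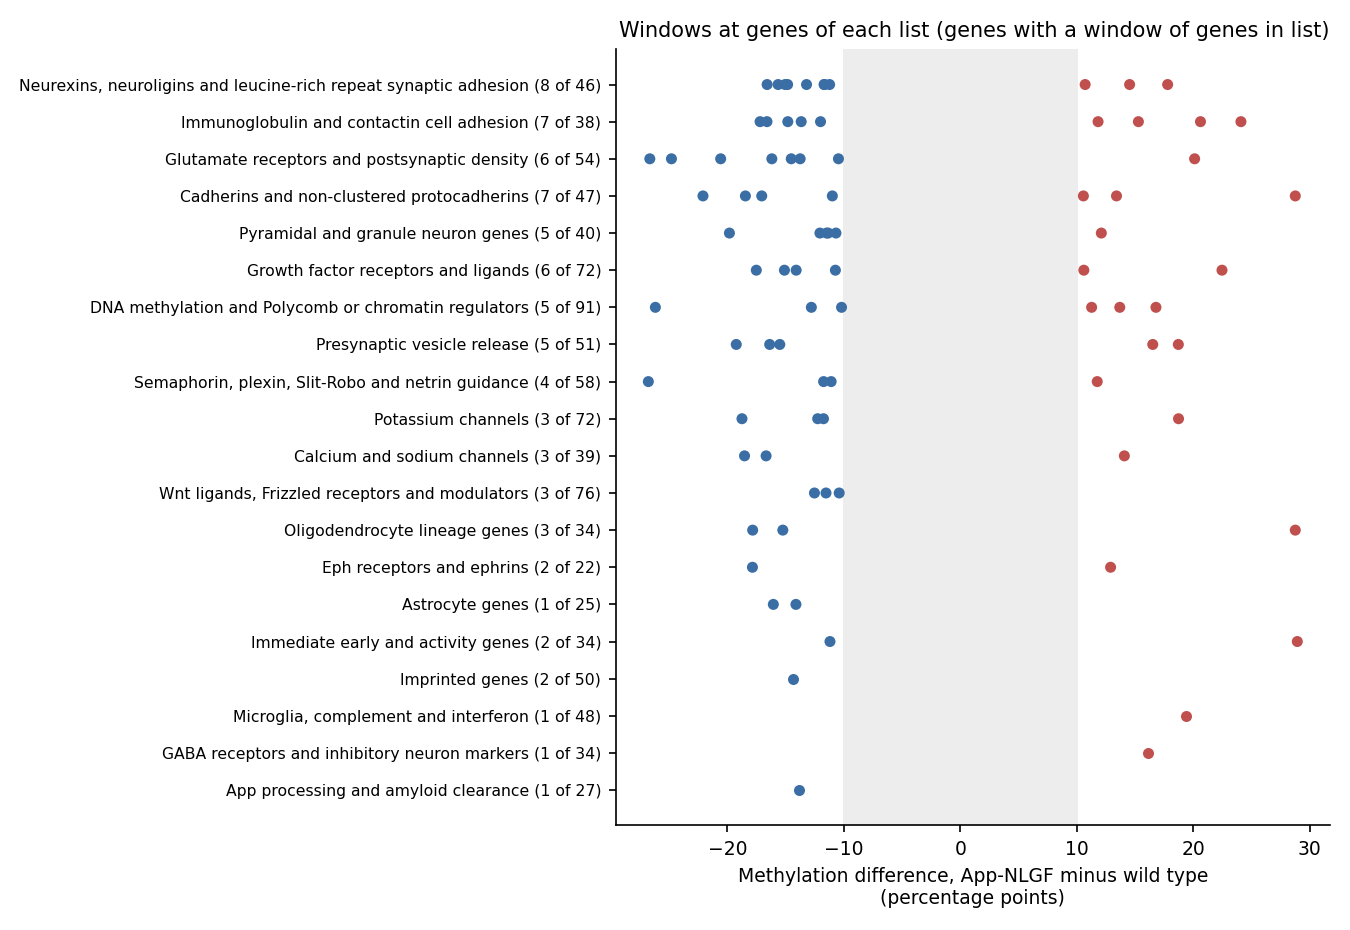
Methylation difference in percentage points (horizontal axis, App-NLGF minus wild type) of every window in or within 10 kb of a gene of each list (rows), higher in red and lower in blue; the grey band covers differences under 10 points, which are not listed. Postsynaptic genes have 1 red and 7 blue points, and adhesion genes have both.

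Over all 23 lists, 74 of 1047 genes had a window, in 84 windows, 26 higher and 58 lower (the share of lower windows in the whole list is 70.5%). Of all coding genes 2.6% had a window. These counts are not like for like, because the share rises with gene length. Median gene length was 17.3 kb over all coding genes and ran from 8.41 to 329 kb among the lists. Of 557 named genes with a window 20 had at least 2 of them, and 10 of those 20 held both directions, 9 only lower and 1, Il1rapl1, only higher windows. A gene name therefore does not stand for a direction of the whole gene. Etl4, a long cytoskeletal gene, is an example with 3 windows at -17.5, 13.1 and -11.4 points in the authors' deposited table.

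A window over a microRNA was among those called higher. It spans chr11:86584001-86585000, holds the whole hairpin of Mir21a, a microRNA abundant in glia and raised in many inflamed tissues, and stood at 12.5 points (adjusted p = 0.0135) in the authors' deposited table. Its mature products are printed from RefSeq because the called window holds their gene, with the seed (bases 2 to 8) in capitals.
mmu-miR-21a-5p: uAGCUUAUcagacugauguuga
mmu-miR-21a-3p: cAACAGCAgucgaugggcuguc

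Other windows in the authors' deposited table lay 7.93 kb from Mir345 (11.8 points), 5.24 kb from Mir140 (-10.4 points) and 7.36 kb from Mir126a, the last being the window at the start of its host gene Egfl7 (-10.5 points).

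Few windows of week 3 were in another list, and each list is itself a small share of the windows tested. That share is 0.0318% in hippocampus of week 8 and 0.0408% in that of week 24. In blood it is 0.0495%, 0.196% and 0.0244% at weeks 3, 8 and 24. Counts this small cannot be read as a change between ages. None of the week 3 windows was in the hippocampal list of week 8 (0 of 742), and 1 (0.0977%) was in that of week 24. This window, chrX:131791001-131792000, stood at 26.2 points at week 3 and 24.3 points at week 24 in the authors' deposited table, and its nearest named gene, Diaph2, is 1325 kb away. Blood of week 3 shared 2 windows (0.195% of the week 3 hippocampal list). Of these, chr16:79105001-79106000 was lower in both tissues (-31.9 points in hippocampus, -36.7 in blood) in the authors' deposited table. The other, chr7:135753001-135754000, was lower in hippocampus and higher in blood (-13.0 and 16.7) in the authors' deposited table. Blood of week 8 shared 4 windows (0.391% of the week 3 hippocampal list and 0.0884% of the blood list), all lower in both. These were the starts of Mettl27 (-12.2 points in hippocampus, -11.1 in blood) and Srp54b (-17.3 and -14.0), a window in the focal adhesion gene Tns1 (-12.9 and -10.1) and again chr16:79105001-79106000 (-31.9 and -24.8) in the authors' deposited table. The last was thus listed in 3 of the 6 lists, always lower, 13.9 kb from Tmprss15 on the chromosome that carries App. Blood of week 24 shared 0.

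At the level of genes the lists met more often. Coding genes with a window at both ages numbered 38 for week 8 (6.76% of the week 3 genes, 10.1% of the week 8 genes) and 37 for week 24 (6.58% and 7.03%). Blood shared 39 at week 3 (6.94% and 6.47%), 149 at week 8 (26.5% and 3.53%) and 24 at week 24 (4.27% and 8.89%). Of all coding genes, 1.74% had a window in hippocampus at week 8, 2.43% at week 24, and 2.79%, 19.5% and 1.25% in blood at weeks 3, 8 and 24. Long genes are likelier to be in any list, and this was not corrected for. Only 3 coding genes had a window at all 3 hippocampal ages. Nell1, a secreted growth regulator gene, was lower each time, at -19.0, -26.8 and -11.98 points at weeks 3, 8 and 24 in the authors' deposited table, and its windows of weeks 3 and 24 are 1 kb apart. Pcdh9 was higher each time (13.4, 20.7 and 13.1 points), at 3 separate places in the gene in the authors' deposited table. St8sia2, which makes the polysialic acid of immature neurons, was lower inside the gene at weeks 3 and 8 (-12.6 and -14.9 points), and a window 7.27 kb upstream was higher at week 24 (11.2 points) in the authors' deposited table. Its week 3 window lies 0.682 kb downstream of the start.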

How the data were processed

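Bisulfite libraries of 20 hippocampi of week 3 were grouped by their titles. The tools named per the submitters' processing notes are methylKit, Bismark, Trim Galore and FastQC, on mm10, with no versions in the sources used here. Bisulfite does not separate methylcytosine from hydroxymethylcytosine, which is common in brain, and incomplete conversion reads as methylation. The p-values and adjusted p-values are the authors' own, as deposited. The difference deposited by the authors is on a percent scale, in points. In the list, adjusted p was always below 0.1 and the difference never smaller than 10 points. Neither the test statistic nor the coverage filter is given in the sources used here. The columns with values for single libraries numbered 0, so no test between animals could be run and depth and coverage are unknown.

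The number of windows tested was recovered from p over adjusted p, assuming Benjamini-Hochberg adjustment and searching a preset range of numbers. Of 573 distinct ranks, 82.9% were whole within 0.02. Windows were assigned to genes they overlapped or lay within 10 kb of (RefSeq GRCm38.p6). Starts on chromosome 18 were not used here, nor were 2 windows on unplaced scaffolds in analyses by position. The grid runs from each chromosome's first to last gene. Python 3.11.15, pandas 2.3.3, NumPy 2.4.6, SciPy 1.17.1 and matplotlib 3.10.9 were used, and the rank recovery was tested on simulated data.

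The comparison, the 23 lists and the members were chosen with earlier results of these data known, and a list's count is a description. Named genes are the 15 largest differences in each direction, the 10 smallest adjusted p in each direction, up to 10 members of each list, genes with several windows, windows shared with another list, up to 20 windows within 1 kb of a coding start, windows within 5 Mb of App and those nearest the limits. All further coding starts inside a window, the windows without a gene, olfactory and vomeronasal genes and the microRNAs were chosen after their values were seen. Alternatives changed the limits, the distances, the merging of windows and the chromosomes kept. A few members of the lists are not reported here by name, and they stay in the counts.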

Additional observations from a re-analysis of the deposited data

How the results depend on the processing

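No paired analysis was possible because the files used here give no values per library, which also left no way to leave out a replicate. The depth of each window is unknown, so what it limits could not be measured.

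Lower windows prevailed under every alternative run. The share of higher windows was 29.0% at an adjusted p under 0.01 and 30.9% at 15 points or more. It was 20% at an adjusted p under 0.001, where only 5 windows were left. The number of windows was 62 at an adjusted p under 0.01, 5 under 0.001 and 405 at 15 points or more, by construction. The median absolute difference was 15.5 points at an adjusted p under 0.01, 13.3 under 0.001 and 17.9 at 15 points or more. The share inside a gene was 40.6% and inside a coding gene 34.9% at 15 points or more (the cause was not tested), and both were 60% of the 5 windows under 0.001. Chromosome 11 lost its place at an adjusted p under 0.01, where chromosome 5 had 12.9% of 62 windows. Merging windows within 10 kb, and leaving out X or chromosome 16, moved no result past its interval. These are 95% intervals over windows, with a fixed factor for counts, and they do not measure the spread among animals.

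Within 5 kb, 2 windows were shared with hippocampus of week 8, 4 with week 24 and 5 with blood of week 3; at 15 points or more 1 was shared with blood of week 3. Listed genes with a window numbered 74, against 40 at 15 points or more and 4 at an adjusted p under 0.01, as fewer windows enter. Windows at a coding start numbered 41 within 1 kb, 92 within 5 kb and 22 where the window holds the start, a count chosen after seeing the data.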
